A study of Mus musculus with 75 samples.

Results

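A set of 10 secreted chemokines of stroma and inflammation was followed across the body of young and aged mice and in the choroid plexus of joined mice: Ccl19, Cxcl13, Cxcl12, Ccl22, Ccl17, Ccl8, Ccl2, Ccl11, Cxcl9 and Cxcl10. They were chosen by name, and they are 10 of the 20680 genes in the tissue table and 10 of the 16954 in the parabiosis table. For each gene the row with the highest mean was used, a choice that mattered for Cxcl12, which has rows that differ. All animals were C57BL/6 mice, perfused with PBS before dissection. In the tissue experiment, 3 aged mice (22 months) and 3 young mice (3 months), wild type (WT in the labels) and untreated, each gave bone marrow flushed from tibia and femur, cervical, inguinal and mesenteric lymph nodes, spleen, thymus, liver, lung, colon, hippocampus and choroid plexus, the epithelium that secretes cerebrospinal fluid. Bone marrow and cervical lymph nodes had 2 young libraries and liver had 2 aged libraries, all other groups had 3, and this gave 63 libraries. In the parabiosis experiment, choroid plexus was taken from surgically joined mice of the same ages: 3 young and 3 old isochronic parabionts, whose partner was of their own age, and 3 young and 2 old heterochronic parabionts, young mice with an old partner and old mice with a young one. The labels name separate numbered mice, and p-values measure the spread between these libraries.

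Chemokines are small secreted proteins that steer leukocytes through G-protein-coupled receptors. Homeostatic chemokines are made by stromal and dendritic cells of lymphoid organs and position lymphocytes there, whereas inflammatory chemokines are induced by interferons, tumour necrosis factor and type 2 cytokines and recruit monocytes, eosinophils and effector T cells. Stromal cells in marrow, lymph nodes and barrier tissues, macrophages and endothelium are known sources of several of them.

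The sequence before the start of the gene was available for 8 of the 10 members in RefSeq's promoter table (build GRCm38.p6); Ccl2 and Ccl11 had no entry. Those of Ccl19, Cxcl13, Cxcl9 and Cxcl10 are shown because they belong to the pairs whose levels are described together, Ccl19 with Cxcl13 (homeostatic) and Cxcl9 with Cxcl10 (induced by interferon). Each line gives the 250 bases before the start, 5′ to 3′ on the strand of the gene: Ccl19 at chr4:42756366-42756615 (minus strand), Cxcl13 at chr5:95956689-95956938 (plus strand), Cxcl9 at chr5:92328080-92328329 (minus strand) and Cxcl10 at chr5:92348890-92349139 (minus strand). Capitals mark matches, on either strand, to the letters of an interferon response element (GAAA, any 2 bases, GAAA), a gamma-activated sequence (TTC, any 3 bases, GAA) or a kappaB site (GGG, any 2 bases, TT, any base, CC). Cxcl13 holds none of them.
Ccl19: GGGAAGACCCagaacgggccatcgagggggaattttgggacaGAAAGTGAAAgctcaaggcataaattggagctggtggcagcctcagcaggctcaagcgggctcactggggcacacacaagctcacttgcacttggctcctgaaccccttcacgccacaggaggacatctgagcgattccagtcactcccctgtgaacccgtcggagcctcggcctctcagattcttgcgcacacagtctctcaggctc
Cxcl13: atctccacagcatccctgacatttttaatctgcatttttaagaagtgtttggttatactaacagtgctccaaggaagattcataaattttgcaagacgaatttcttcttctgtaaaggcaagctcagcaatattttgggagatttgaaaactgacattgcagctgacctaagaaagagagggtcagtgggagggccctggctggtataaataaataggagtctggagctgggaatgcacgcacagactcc
Cxcl9: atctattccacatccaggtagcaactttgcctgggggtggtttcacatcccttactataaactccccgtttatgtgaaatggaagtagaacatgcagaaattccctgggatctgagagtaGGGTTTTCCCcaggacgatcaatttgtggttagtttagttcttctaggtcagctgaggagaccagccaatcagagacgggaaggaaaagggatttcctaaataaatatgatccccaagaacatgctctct
Cxcl10: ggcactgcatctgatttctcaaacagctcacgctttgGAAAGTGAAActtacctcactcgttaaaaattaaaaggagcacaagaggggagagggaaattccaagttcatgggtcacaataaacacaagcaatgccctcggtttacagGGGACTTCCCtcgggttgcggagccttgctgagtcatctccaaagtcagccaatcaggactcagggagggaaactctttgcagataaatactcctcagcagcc
The interferon response element letters were found in Cxcl10, from 213 to 204 bases before the start, and in Ccl19, from 208 to 199 bases before it, so in 2 of the 8 members, against 2.98% of the 32851 promoters searched. The kappaB letters were found in Cxcl10, Cxcl9 and Ccl19, 3 of 8, against 4.11% of all promoters. The gamma-activated letters were found in Ccl17 alone, 1 of 8, against 7.02%. A match is a description of letters, and these chemokines were chosen with their biology known.

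Deposited values were judged, from the values themselves, to be reads per transcript divided by a factor of the library. On that reading 1 read was worth 0.527 to 2.19 in the tissue libraries and 0.783 to 1.48 in the parabiont libraries. Libraries were shallow, with the equivalent of 187827 to 1134770 reads per tissue library and 534663 to 992000 per parabiont library, so a member at a value under about 3 rests on a few reads. A member was tested if 3 reads or more were present in a number of libraries no less than the size of the smaller group, and was otherwise too low to judge. Of the 110 pairs of a member and a tissue, 65 could be tested for age and 45 were too low. Several libraries stood apart. Summed markers of bone marrow, choroid plexus, colon, hippocampus, liver, lung and thymus were compared between tissue libraries, with young mouse 2 left out. Each sum was higher in the organ's own libraries than in any other tissue library. This did not extend to the parabiont libraries, where the 5 choroid plexus markers, all above 0, summed to 2087 to 3032. In the tissue experiment they summed to 211285 to 273163 in choroid plexus and to 6950 to 20488 in liver. The gene with the highest value held 0.1001% to 0.1586% of the summed values in parabiont libraries and 29.8% to 33.97% in choroid plexus of the tissue experiment. The cause of these differences between experiments was not tested. Levels of the parabiosis and tissue experiments should therefore not be set against each other. The spleen list, the 2 macrophage genes Cd5l and Spic, did not mark spleen alone: it stood at 330.6 and 543.5 in aged livers, against 186.9 to 263.7 in aged and 51.2 to 150.7 in young spleens. Libraries of young mouse 2 carried genes of other organs: summed lung markers stood at 34174 in its spleen against 36.3 to 83.3 in the other spleens, liver markers at 42536 in its lung against 18.6 to 34.3, colon markers at 4632 in its mesenteric lymph nodes against 1.87 to 25.1, and hippocampus markers at 1177 in its cervical lymph nodes against 19.4 to 30.4. Its hippocampus held 483.7 of summed B cell markers against 0 to 2.19 in the other hippocampi, and its hippocampus markers stood at 1260 against 4436 to 5126. The inguinal lymph nodes of aged mouse 3 held 18486 of summed fat cell markers against 71.7 to 1286 in the other inguinal nodes, with B cell markers at 127.5 against 689 to 816.

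All 10 chemokines were called higher in the 3 lymph node sites than in the mean of the other 8 tissues, where 20.5% of all genes tested were called higher (limma on log2 values, mouse as a term in the model, adjusted p under 0.05 over all genes). The median difference of the 10 was 2.29 on the log2 scale, against -0.12 over all genes. The homeostatic pair differed most. Ccl19, which brings T cells and mature dendritic cells together through CCR7, was higher by 3.99 (SE 0.288, adjusted p = 8.15e-15), and Cxcl13, which draws B cells into follicles through CXCR5, by 3.96 (SE 0.433, adjusted p = 1.12e-09). Ccl22, a dendritic cell product that acts on CCR4 of regulatory T cells, was higher by 3.71 (SE 0.362, adjusted p = 4.03e-11). Ccl8, a macrophage chemokine that acts on CCR8 in mice, was higher by 3.60 (SE 0.384, adjusted p = 3.52e-10), and Cxcl9, an interferon-gamma product that acts on CXCR3, by 2.65 (SE 0.277, adjusted p = 9.99e-11). The other 5 differed by 0.98 (Ccl17) to 1.93 (Cxcl12). All 10 were called under every alternative tried, including the scalings, with Cxcl12 counted as called if either of its differing rows was. Its alpha isoform row was called, and its beta and gamma isoform row, tested as its own feature, was not (adjusted p = 0.590, limma). Of all genes called, 39.4% were higher in lymph nodes as deposited, 45.9% after quantile normalization and 62.9% after scaling to equal column sums. In the last of these the median of all genes moved to 0.12. In bulk tissue, fewer cells of a type and less RNA per cell cannot be told apart.

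**Figure D1:**
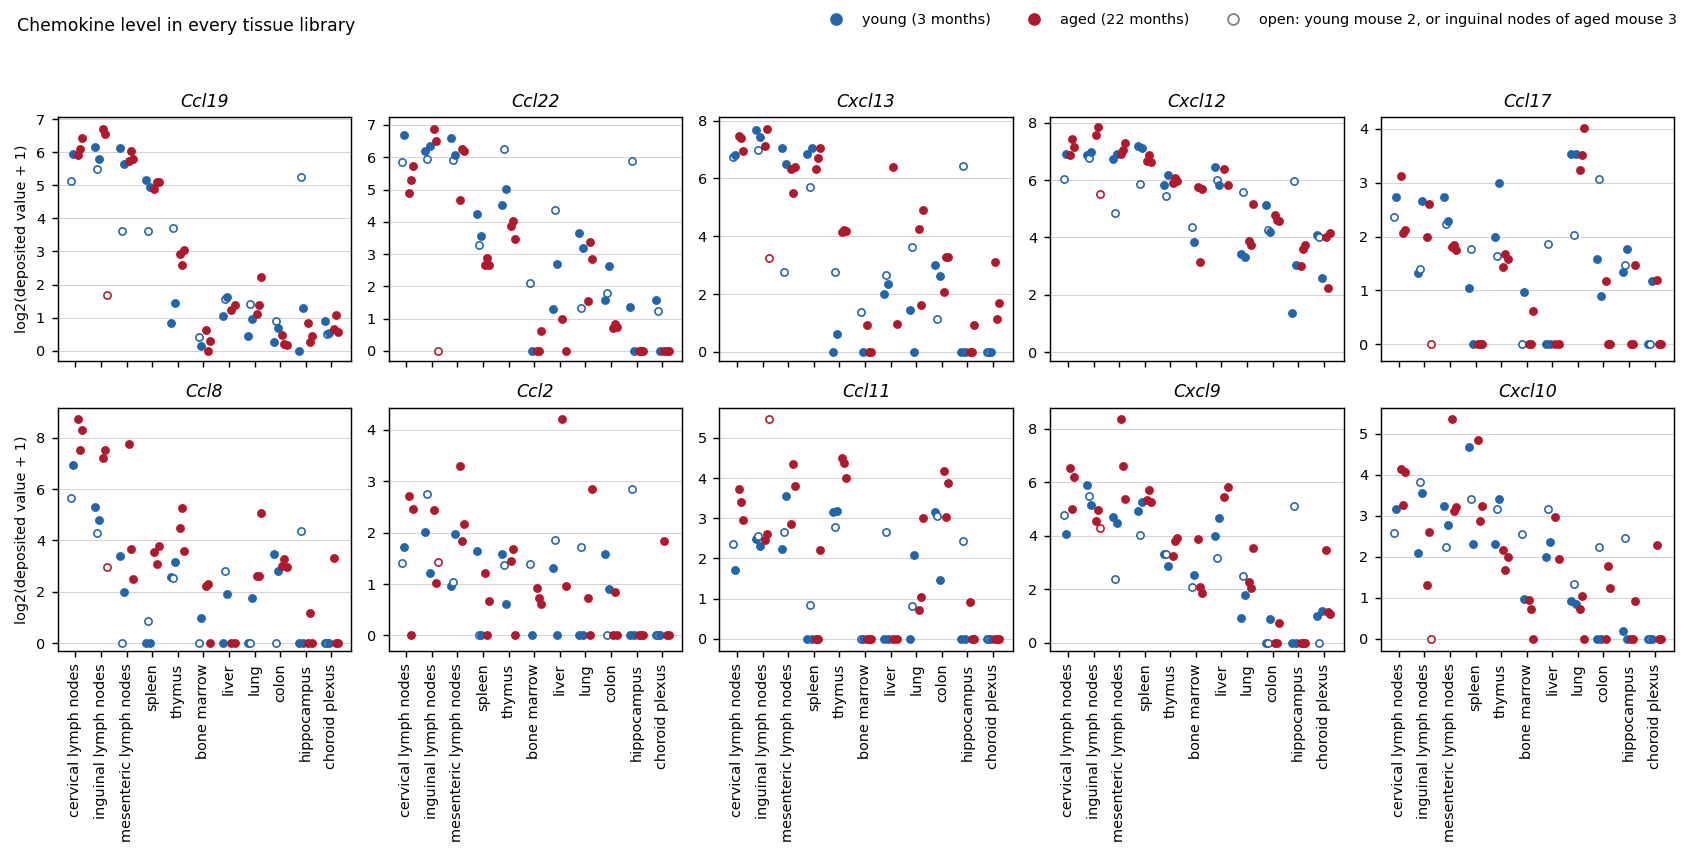
Level of each chemokine in every tissue library, as log2 of the deposited value plus 1, with tissues on the horizontal axis, young libraries in blue and aged libraries in red; open points are libraries of young mouse 2 and the inguinal nodes of aged mouse 3. Ccl19, Ccl22, Cxcl13 and Cxcl12 are highest in lymph nodes and spleen or thymus, Ccl17 is highest in lung, and the open point of Ccl22 in hippocampus stands at a value of 57.7.

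Ccl19 in lymph nodes ran from 59.8 to 84.4 in cervical nodes, from 54.9 to 104 in inguinal nodes and from 48.9 to 68.9 in mesenteric nodes, leaving out young mouse 2 and, for inguinal nodes, aged mouse 3. Spleen followed at 32.0 ± 2.47 (SD, n = 5, without young mouse 2), below every lymph node library but those left out and above thymus at 4.29 ± 2.92 (n = 5). In bone marrow, liver, lung, colon, hippocampus and choroid plexus it was too low to judge, apart from the mixed hippocampus of young mouse 2 at 37.1. Reads of Ccl19 are held in fractions of a read, as could arise if near-identical copies of the gene share them. This was not tested, and if they do, its level cannot be told apart from theirs.

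Cxcl13 averaged 143.2 ± 31.9 in cervical nodes (SD, n = 4), 111.7 ± 21.8 in spleen (n = 5) and 85.1 ± 31.2 in mesenteric nodes (n = 5), all without young mouse 2, and these ranges overlapped. Its inguinal nodes held 138.3 and 209.9 in aged mice 1 and 2, 8.39 in the fat-rich library of aged mouse 3, and 124.5 to 204.9 in young mice. In liver, aged mouse 1 held 83.4 and the other 4 livers held 0.947 to 5.28. Cxcl13 was too low to judge for age in bone marrow, hippocampus and choroid plexus.

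Ccl22 and Ccl17 are neighbouring genes whose products share the receptor CCR4, but their tissues differed. Ccl22 averaged 72.4 ± 43.8 in inguinal nodes (SD, n = 5), where the fat-rich library of aged mouse 3 held 0. It averaged 67.2 ± 26.4 in mesenteric nodes (n = 5) and 55.1 ± 32.2 in cervical nodes (n = 4). Thymus was next at 18.4 ± 8.26 (n = 5) and spleen at 9.15 ± 5.43 (n = 5), all without young mouse 2. Ccl17 was highest in lung, at 8.42, 10.4 and 15.1 in aged mice and 10.6 and 10.5 in young mice 1 and 3, above the highest lymph node value of 7.76 in every one of these 5 libraries. The lung of young mouse 2, which carried liver genes, held 3.06. Outside lung, thymus and the cervical and mesenteric nodes Ccl17 was too low to judge.

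Ccl8, Ccl2 and Ccl11 recruit monocytes and eosinophils. Ccl8 was highest in cervical nodes, with 49.8 to 423.7 in 5 libraries, and ranged from 4.80 to 37.2 in thymus. Ccl2, the main CCR2 ligand, was near the limit of counting in every tissue: its highest value was 17.7, in the liver of aged mouse 1, and it could be tested in cervical and mesenteric nodes and liver only. Ccl11, the eotaxin that acts on CCR3, averaged 14.5 ± 6.44 in thymus (SD, n = 5, without young mouse 2) and 9.53 ± 5.99 in colon (n = 5), which overlapped. Its highest library was the fat-rich inguinal node of aged mouse 3 at 43.6, and it was at 0 in every bone marrow and choroid plexus library.

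Cxcl9 and Cxcl10 are the interferon-induced pair. Cxcl9 averaged 39.1 ± 7.96 in spleen (SD, n = 5) and 34.7 ± 18.4 in liver (n = 4), without young mouse 2, and their ranges overlapped with those of all 3 lymph node sites. It was at most 0.869 in colon. Cxcl10 was highest in spleen, where libraries ran from 3.93 to 27.8, and in mesenteric nodes, where they ran from 3.69 to 40.2, and neighbouring tissues in the order did not stand apart.

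In bone marrow, 6 of the 10 members were called lower than in the mean of the other 10 tissues (31.5% of all genes were called lower): Cxcl13 by -3.44, Ccl19 by -2.69, Ccl22 by -2.63, Ccl11 by -1.92, Ccl8 by -1.84 and Ccl17 by -1.17. Cxcl9, Cxcl10, Cxcl12 and Ccl2 were not called. The count was 4 after quantile normalization and 9 with a pseudocount of 4 reads, 5 with voom weights, and Ccl8 was not called without aged mouse 3 or without either of the 2 young mice in this group. Of all genes called in bone marrow, 35.4% were higher as deposited and 47.9% after quantile normalization. In choroid plexus all 10 were called lower than in the mean of the other 10 tissues, among 33.7% of all genes, from -0.84 for Ccl2 to -2.87 for Cxcl13. The count was 9 with voom weights, where Ccl2 was not called (adjusted p = 0.0584), and Ccl2 was not called either with a pseudocount of 4 reads, with no term for the mouse, or when any of the mice other than aged mouse 1 was left out (adjusted p = 0.0549 to 0.0962). RNA of choroid plexus was purified with the RNA MicroPrep kit and that of the other tissues with miRNeasy, so kit and tissue cannot be told apart there. Of all genes called in choroid plexus, 44.4% were higher as deposited and 27.9% after scaling to equal column sums, and the 10 members were called lower in both. For bone marrow and choroid plexus alike, the other 10 tissues include the 3 lymph node sites, where all 10 members were called higher. By mean, choroid plexus was the lowest tissue for Ccl2, Ccl8, Ccl22, Cxcl10 and Cxcl12. It was not for Ccl17, Ccl19, Cxcl9 and Cxcl13. Ccl19 averaged 0.65 there, 0.39 in colon and 0.24 in bone marrow. In choroid plexus 9 members were too low to judge for age.

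Cxcl12, the CXCR4 ligand that retains blood cell precursors in marrow and guides cells in development, has 3 rows in the files. The row used is that of the alpha isoform, and the rows of the beta and gamma isoforms, which share their last exon, hold identical values and were read as 1 row. The rows gave different tissue patterns. The alpha row was higher in lymph nodes by 1.93 (SE 0.264, adjusted p = 1.31e-07, each row tested as its own feature), while the beta and gamma row differed by 0.12 (SE 0.184, adjusted p = 0.590). In bone marrow the alpha row differed by -1.01 (adjusted p = 0.0562) and the beta and gamma row by 0.72 (adjusted p = 0.0503), neither called, and the difference between rows was not tested.

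As a share of the summed value of both rows, the beta and gamma row took 65.7% to 78.2% in the 5 bone marrow libraries, 69.3% to 89.3% in the 6 lungs and 55.5% to 78.3% in the 5 livers. In mesenteric nodes it took 15.8% to 34.6%, in cervical nodes 19.1% to 31.3% and in thymus 21.8% to 36.7%, so these 3 tissues did not overlap with marrow, lung or liver. The bone marrow of aged mouse 1 held 58 reads of alpha against 182 of beta and gamma, and the mesenteric nodes of the same mouse held 189 against 37. The inguinal node of aged mouse 3, rich in fat cell genes, stood at 60.3% and the other 5 inguinal libraries at 18.6% to 39.2%. In choroid plexus the share ran from 28.6% to 80% on at most 16 reads of either row in each library, too few to order, and from 27.4% to 45.5% in the parabiont libraries.

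**Figure D2:**
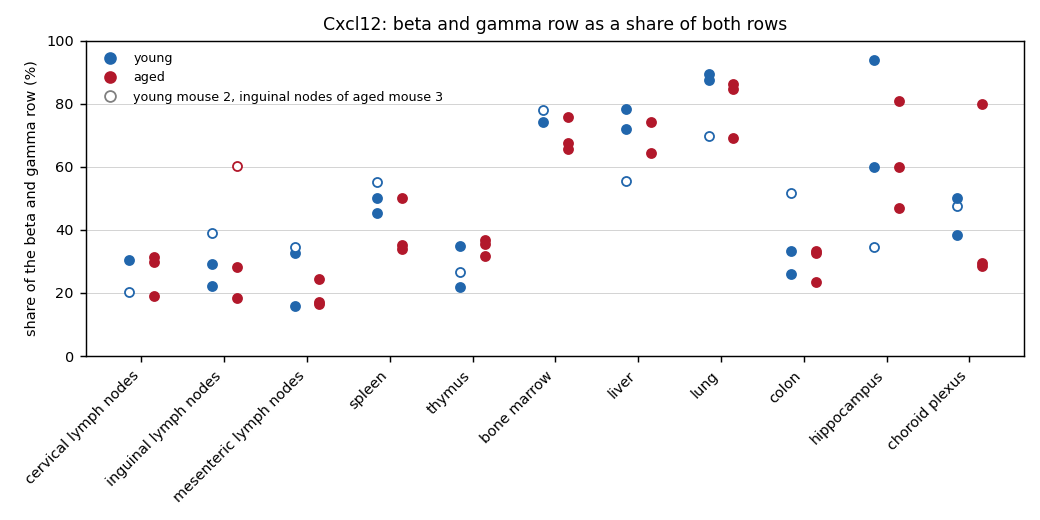
Share of the beta and gamma row in the summed value of both Cxcl12 rows, in percent, for every tissue library, young in blue and aged in red; open points are young mouse 2 and the inguinal nodes of aged mouse 3. Lung, liver and bone marrow lie at or above 55.5% in every library, and cervical and mesenteric nodes and thymus lie at or below 36.7%.

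Age was tested within each tissue. Where groups are said not to overlap, this is a description, and the share of all genes that did so is not given here. Groups of 2 or 3 libraries can stand apart with no difference in level. In thymus, 1 of the 9 members tested was called, Cxcl13, beside 1.09% of all genes. An unadjusted p under 0.05 was found for 4 of the 9 and for 13.9% of all genes. Aged thymus held 16.6, 17.5 and 16.99 of Cxcl13 (mice 1 to 3), and young thymus held 0, 5.86 and 0.535. The groups did not overlap, and the highest young value was that of mouse 2. Cxcl13 passed the filter through aged thymus: libraries with 3 reads or more were 3 aged and 1 young. The direction of its difference is therefore not independent of the filter. The difference was 3.23 on the log2 scale (SE 0.654, adjusted p = 0.0303, limma), with 1 call also under voom weights. Without young mouse 2 it was 3.88 (adjusted p = 0.000374), but the call was lost with any of the other 5 libraries left out, at adjusted p = 0.0798 to 0.118, as it was with a smaller pseudocount, no filter, neither the trend nor the robust option of limma, or 1 fit over all tissues. The thymus shrinks and gains fat with age, and marker sums of other cells were set beside Cxcl13. Fat cell markers stood at 758 to 2449 in aged and at 247, 1186 and 269 in young thymus (mice 1 to 3). B cell markers stood at 36.7 to 98.6 against 13.4, 227 and 17.9. Both of these sums overlapped between ages, through young mouse 2. Markers of fibroblasts, at 245.6 to 490.6 in aged and 118.1 to 191.8 in young thymus, and of endothelium, at 58.0 to 83.2 and 48.2 to 57.5, stood apart by age. All 3 B cell markers were above 0 in every thymus library, and 1 of the 4 fat cell markers was at 0 in young mice 1 and 3. The part of these cells in the result was not tested.

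Ccl8, Ccl11 and Ccl22 also had groups without overlap in thymus but were not called. Ccl8 was 21.2, 37.2 and 11.0 in aged thymus against 4.95, 4.80 and 8.03 in young thymus, a difference of 1.71 (SE 0.431, adjusted p = 0.0760). It was called without aged mouse 3 (2.18, adjusted p = 0.0373), the aged mouse with the least of it. Over all alternatives, 0 to 268 of all genes were called in thymus. Ccl11 was 21.8, 19.7 and 14.99 in aged against 7.92, 5.86 and 8.03 in young thymus (difference 1.28, SE 0.345, adjusted p = 0.0962). Ccl22 was 13.8, 15.3 and 9.99 in aged against 21.8, 75.1 and 31.1 in young thymus (difference -1.48, SE 0.383, adjusted p = 0.0852). The value of 75.1 was young mouse 2, whose thymus held 330.4 of summed dendritic cell markers against 57.5 and 76.2 in the other young thymus libraries, and without it the Ccl22 difference was -0.97. Cxcl10 was lower in every aged thymus than in every young one (3.44, 2.19 and 3.00 against 3.96, 7.99 and 9.64), by -1.06 with adjusted p = 0.376.

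**Figure D3:**
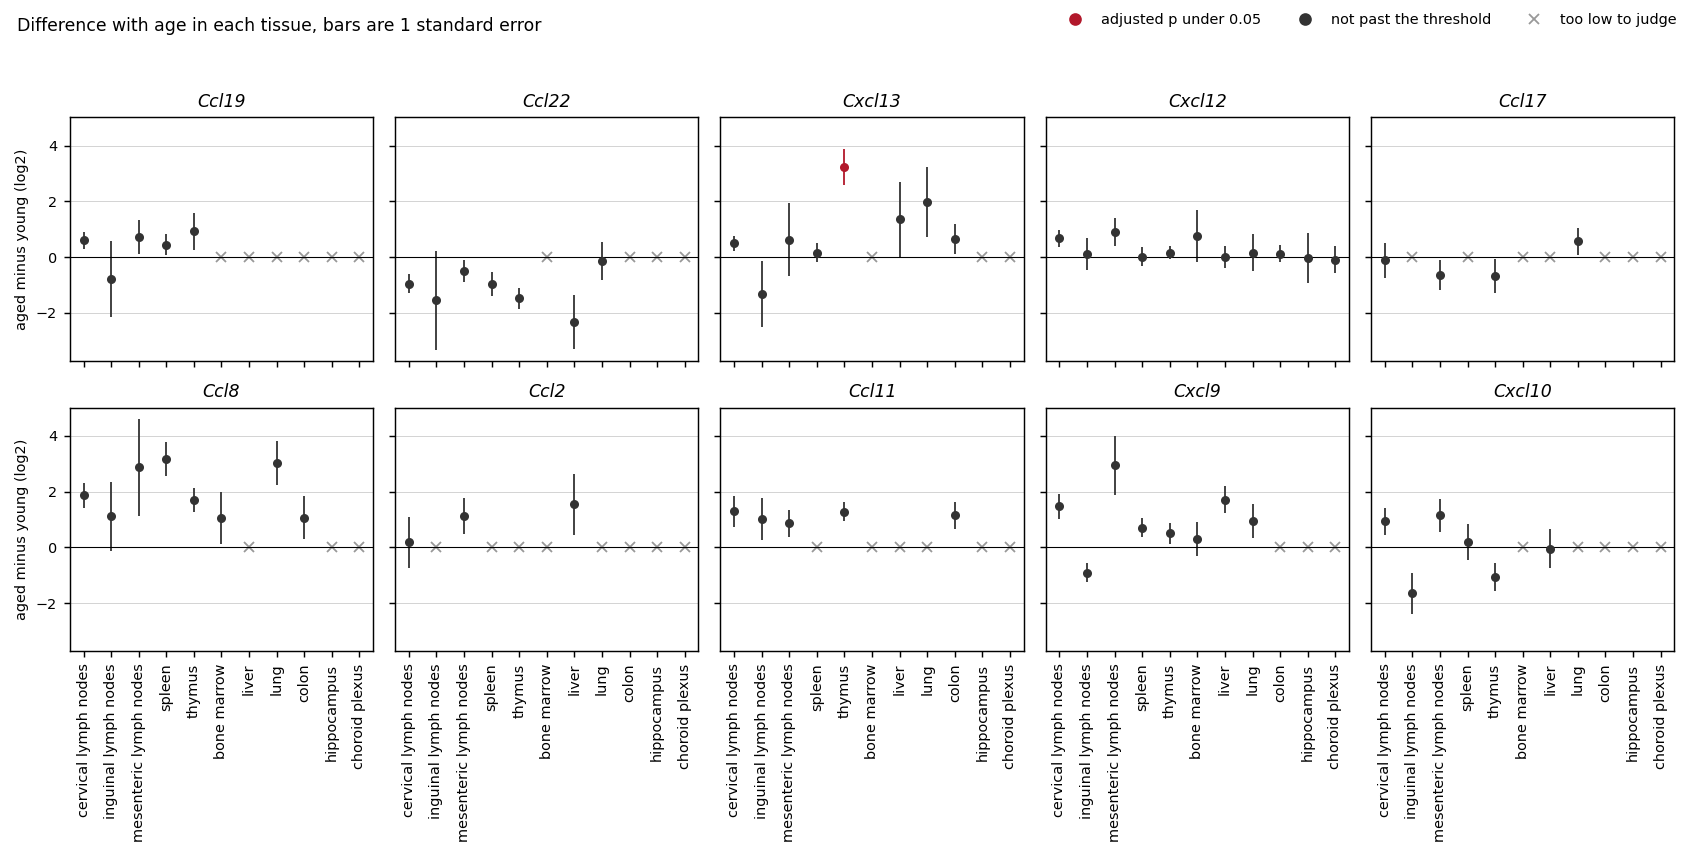
Aged minus young difference of each chemokine in each tissue on the log2 scale, with bars of 1 standard error; red is past an adjusted p of 0.05, black is not, and grey crosses mark members too low to judge. Cxcl13 in thymus, at 3.23, is the 1 difference past the threshold, and every tested Ccl8 difference lies above 0 while every tested Ccl22 difference lies below 0.

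In inguinal lymph nodes none of the 8 members tested was called (0% of all genes were called, by limma or with voom weights). An unadjusted p under 0.05 was found for 1 member and for 4.59% of all genes. Ccl8 was 148.7, 181.4 and 6.71 in aged mice 1 to 3, against 37.9, 18.7 and 26.6 in young mice. The low aged value was the fat-rich library, and without it Ccl8 was called at 2.56 with adjusted p = 8.60e-09. Cxcl12 was then also called, at 0.85 (adjusted p = 0.0426), from 190.4 and 232.3 in aged against 116.9, 107.4 and 124.9 in young nodes. Leaving out a library leaves an aged arm of 2, and the one left out is the one with the low Ccl8 value. Over all alternatives, 0 to 30 of all genes were called in these nodes. With all 6 libraries the differences were 1.11 for Ccl8 and 0.12 for Cxcl12. Without the fat-rich library, 3 other differences, none of them called, turned from below 0 to above it: Ccl22 from -1.54 to 0.53, Ccl19 from -0.79 to 0.81 and Cxcl13 from -1.32 to 0.06. Cxcl9 was lower in every aged inguinal node (22.3, 30.6 and 18.5) than in every young one (59.2, 44.0 and 34.5), a difference of -0.90 (SE 0.327, adjusted p = 0.843). Macrophage markers, all 6 above 0, were also lower in every aged inguinal node (1031 to 1513 against 1698 to 2021), as were those of lymph node stroma (106.6 to 1777 against 2853 to 4502, with 1 of 5 at 0 in an aged node), and their part was not tested.

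In cervical lymph nodes none of the 10 members was called, beside 0.033% of all genes, by limma or with voom weights. An unadjusted p under 0.05 was found for 4 of them and for 7.6% of all genes. Ccl8 was 423.7, 181.8 and 311.6 in aged nodes against 49.8 and 122.9 in the nodes of young mice 2 and 3 (difference 1.87, SE 0.450, adjusted p = 0.279), and Cxcl9 was 91.0, 31.0 and 73.1 against 26.6 and 15.9 (1.47, SE 0.437, adjusted p = 0.414). Ccl11 (12.2, 9.62 and 6.75 against 4.15 and 2.28) and Cxcl10 (16.6, 8.55 and 15.8 against 4.98 and 7.97) were also higher in every aged library, as was Cxcl13 (174.1, 166.8 and 121.5 against 105.4 and 110.4), none of them called. Ccl22 went the other way, with 28.8, 38.5 and 51.7 in aged and 56.4 and 101.3 in young nodes (-0.95, SE 0.340, adjusted p = 0.490). Summed markers of lymph node stroma were 1722 to 3058 in aged and 2719 and 4115 in young cervical nodes, all 5 above 0, and their part in these differences was not tested.

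Mesenteric lymph nodes gave no call among 10 members, beside 0.0341% of all genes, by limma or with voom weights. An unadjusted p under 0.05 was found for 1 member and for 8.62% of all genes. Aged mouse 1 stood highest for Cxcl9, Ccl8 and Cxcl10. It held 331.7 of Cxcl9, 212.3 of Ccl8 and 40.2 of Cxcl10, while aged mice 2 and 3 held 97.6 and 41.1 of Cxcl9, 11.6 and 4.70 of Ccl8 and 7.70 and 8.22 of Cxcl10. Young nodes held 25.3, 4.22 and 21.5 of Cxcl9, 9.36, 0 and 2.93 of Ccl8 and 8.43, 3.69 and 5.85 of Cxcl10. The Cxcl9 difference of 2.94 (SE 1.05, adjusted p = 0.562) became 2.15 without aged mouse 1, that of Ccl8 went from 2.87 to 1.31 and that of Cxcl10 from 1.15 to 0.42. Without young mouse 2, whose node carried colon genes and held the least of all 3, they were 2.20 for Cxcl9, 1.96 for Ccl8 and 0.89 for Cxcl10, and the differences of Ccl19 (0.73) and Cxcl13 (0.63) turned to -0.03 and -0.70. Macrophage markers, all 6 above 0 in every library, summed to 2965 in aged mouse 1, 2474 and 1960 in the other aged and 576 to 1959 in young nodes, and their part was not tested.

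In spleen none of the 7 members tested was called by limma or with voom weights, beside 0.154% of all genes. An unadjusted p under 0.05 was found for 2 of them and for 9.39% of all genes. Ccl8 was 10.6, 7.55 and 12.6 in aged spleen against 0, 0.80 and 0 in young spleen, without overlap, a difference of 3.16 (SE 0.608, adjusted p = 0.0811). It was called without young mouse 2, whose spleen carried lung genes (3.39, adjusted p = 0.0103), and with neither the trend nor the robust option of limma (adjusted p = 0.0321). Ccl8 passed the filter through aged spleens only, with 3 reads in 3 aged and 0 young libraries. The direction of its difference is therefore not independent of the filter. Over all alternatives, 8 to 63 of all genes were called in spleen. Ccl22 was 5.29, 6.29 and 5.40 in aged spleen against 18.0, 8.80 and 10.8 in young spleen, also without overlap (-0.97, SE 0.430, adjusted p = 0.521). Cxcl13, Ccl19 and Cxcl12, the chemokines of the white pulp and of stroma, overlapped between ages, and without young mouse 2 their differences turned from 0.15 to -0.26, from 0.45 to -0.03 and from 0.02 to -0.42. Macrophage markers summed to 1904 to 2613 in aged and 1567 to 3105 in young spleen, all 6 above 0, so these sums overlapped. Dendritic cell markers, all 5 above 0, were higher in aged spleen (158.8 to 185 against 72.6 to 139.7), as were Cd5l and Spic together (186.9 to 263.7 against 51.2 to 150.7), while stromal markers of lymph nodes were lower (112.1 to 137.7 against 140 to 184.3), and their part in the Ccl8 and Ccl22 differences was not tested.

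In the other tissues no member was called by limma or with voom weights. The share of all genes with an unadjusted p under 0.05 was 10.2% in lung, 4.28% in liver, 11.3% in colon and 6.61% in bone marrow. Lung had 0.00782% of genes called and 6 members tested, with 1 unadjusted p under 0.05. Ccl8 was 5.18, 5.20 and 32.8 in aged lungs against 0, 0 and 2.42 in young lungs (3.01, SE 0.784, adjusted p = 0.313). It passed the filter there through aged lungs, with 3 reads in 3 aged and 1 young library. Without aged mouse 3, whose lung held 928.7 of summed fat cell markers against 30.0 to 114 in the other lungs, the difference was 2.23. Liver had 0.0172% of genes called and 6 members tested, with 2 unadjusted p under 0.05: Cxcl9 was 43.2 and 55.9 in aged livers against 14.9, 7.92 and 24.7 in young livers (1.71, SE 0.487, adjusted p = 0.950), and Ccl22 was 0.981 and 0 against 1.49, 19.8 and 5.49, where 19.8 was young mouse 2 with thymus genes in its liver. The Ccl22 difference was -2.32, and without that library Ccl22 was too low to judge. Macrophage markers summed to 1385 and 434.8 in aged livers and to 294.7 to 576.6 in young ones, all 6 above 0, and their part was not tested. In colon, with 0.123% of genes called, 4 members tested and 1 unadjusted p under 0.05, Ccl11 was 17.2, 7.20 and 13.6 in aged colon against 7.98, 7.34 and 1.74 in young colon, an overlap (1.16, SE 0.484, adjusted p = 0.375), and without young mouse 3 the difference was 0.59. In bone marrow, with 0.0529% of genes called, Ccl8, Cxcl9 and Cxcl12 were tested and overlapped between ages, and none had an unadjusted p under 0.05.

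The 2 brain tissues were mostly too low. In hippocampus (0% of genes called) and in choroid plexus (0.296% called) only Cxcl12 could be tested, its unadjusted p was above 0.05 in both, and 9 members were too low to judge. Cxcl12 in choroid plexus was 11.9 ± 7.20 in aged and 12.1 ± 6.11 in young mice (SD, n = 3 each), a difference of -0.09 (SE 0.480, adjusted p = 0.991). In hippocampus it was 10.2 ± 2.83 in aged mice (SD, n = 3) and 1.55, 62.1 and 7.28 in young mice, the high value being the mixed library of young mouse 2 (difference -0.02, adjusted p = 0.996, and 1.20 without that library, adjusted p = 0.739). Of the 9 members too low to judge, 5 stood at 2 reads or more in the choroid plexus of aged mouse 1 and lower in the other 5 libraries: Cxcl9 was 10.2 there and at most 1.25 in the other 5, Ccl8 was 8.96 against 0 in all others, Cxcl10 3.84 against 0, Ccl2 2.56 against 0 and Cxcl13 7.68 against at most 2.24. These are 2 to 8 reads each in 1 library, so no statement about age rests on them. Ccl22 was at 0 in all 3 aged libraries and at most 1.996 in young ones. Macrophage markers summed to 187.6 in that library, with 1 of 6 at 0, and to 55.8 to 80.6 in the other 5, and their part was not tested.

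Across tissues 4 members had differences on 1 side of 0. Ccl8 was higher with age in all 8 tissues where it could be tested, by 1.06 to 3.16, and 3.01% of the 9132 genes tested in the same 8 tissues were above 0 in all of them. Ccl22 was lower in all 7 tissues where it could be tested, by -0.13 to -2.32, and 4.76% of 9496 genes were below 0 in all of the same tissues. Ccl11 was higher in all 5 (0.86 to 1.30), as were 6.41% of 9784 genes, and Ccl2 in all 3 (0.18 to 1.54), as were 19.8% of 10191 genes. The filter can tilt these counts, since a gene can pass it through 1 age. Libraries with 3 reads of Ccl8 were 3 aged and 0 young in spleen, 2 and 0 in bone marrow and 3 and 1 in lung. Where Ccl8 was too low, its mean was lower in aged liver (0 against 2.895) and hippocampus (0.412 against 6.51, from young mouse 2). It was higher in aged choroid plexus (2.99 against 0). Ccl2 in cervical nodes passed through 2 aged libraries, and Ccl22 in liver through 2 young ones. Without young mouse 2, Ccl8 was above 0 in 7 of 8 tissues and Ccl22 below 0 in 6 of 6, and without aged mouse 3 the counts were 8 of 9 and 6 of 7. Ccl11 was above 0 in 6 of 6 without young mouse 2 and in 5 of 6 without aged mouse 3, where liver, too low with all libraries, was at -0.82, and Ccl2 was above 0 in 2 of 2 and 3 of 4. The tissues come from the same 6 mice and are not independent, and no tissue alone passed the threshold for these 4 members with all libraries. The difference of Cxcl12, in its alpha row, lay between -0.09 and 0.90 over 11 tissues. That of the beta and gamma row ran from -0.59 in spleen to 0.74 in cervical lymph nodes, with no call. In thymus it was 0.63 (unadjusted p = 0.0407, adjusted p = 0.336, limma). No member passed the test of an age effect that differs between tissues, where 0.148% of all genes did, and the smallest value was that of Cxcl9 (adjusted p = 0.457). That count was 0 of 10 with voom weights too, and 1 member had an unadjusted p under 0.05, as did 8.25% of all genes.

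In parabionts 8 members could be tested and Ccl11 and Ccl19 were too low to judge. No member was called in any comparison, by limma or with voom weights. The percentage of all genes called was 0.177% for old against young isochronic, 0% for young heterochronic against young isochronic, 0% for old heterochronic against old isochronic, 0.135% for old against young heterochronic and 0% for the effect of the partner in old minus that in young. The number of members with an unadjusted p under 0.05 was 0, 0, 2, 3 and 2 in the same order. The share of all genes under it was 5.09%, 6.39%, 8.81%, 8.28% and 6.29%. Comparisons share groups, so their values are set side by side only. As with age, groups without overlap are a description, with no share of all genes to set beside them.

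Ccl2, the monocyte chemokine, was 9.00 and 8.87 in the 2 old heterochronic mice, above all old isochronic (3.85, 3.41 and 1.82) and young heterochronic (3.48, 0.997 and 3.02) libraries, while young isochronic libraries held 3.09, 2.35 and 8.25. The difference was 1.34 against old isochronic (SE 0.543, adjusted p = 0.511) and 1.59 against young heterochronic (SE 0.543, adjusted p = 0.370), and the effect of the partner in old minus that in young was 1.95 (SE 0.729, adjusted p = 0.689). Ccl8 was also highest in old heterochronic mice, on 3 and 4 reads: 3.38 and 5.92 in old heterochronic, 0.962, 1.71 and 0 in old isochronic, 1.16, 0 and 0 in young heterochronic and 2.06, 2.35 and 0 in young isochronic libraries. Its differences were 1.66 (adjusted p = 0.526), 2.09 (adjusted p = 0.405) and 2.41 (adjusted p = 0.767). T cell markers were near 0 in all parabionts, with a summed level of 2.96 to 3.38 in old heterochronic and at most 2.48 in the other groups, and macrophage markers summed to 140.6 and 204.8 in old heterochronic, 139.5 to 153.4 in old isochronic, 90.3 to 139.9 in young heterochronic and 150.3 to 186.7 in young isochronic libraries. Their part in these values was not tested.

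Cxcl13 was 6.75 and 8.87 in old heterochronic, 2.88, 6.82 and 7.27 in old isochronic, 1.16, 0.997 and 2.01 in young heterochronic and 0, 4.70 and 4.95 in young isochronic mice. Old heterochronic exceeded young heterochronic mice without overlap (1.90, SE 0.629, adjusted p = 0.346). Old isochronic mice overlapped with young isochronic mice (0.96, SE 0.563, adjusted p = 1.00), old heterochronic with old isochronic mice (0.47, SE 0.629, adjusted p = 0.872) and young heterochronic with young isochronic mice (-0.46, SE 0.563, adjusted p = 0.934). Cxcl12 was the 1 member well above the counting limit, at 81.6 ± 4.397 in young isochronic, 59.1 ± 27.1 in young heterochronic, 64.9 ± 10.4 in old isochronic (SD, n = 3 each) and 79.98 ± 14.4 in old heterochronic mice (n = 2). These are values of the alpha row. In it every old isochronic library was below every young isochronic one, by -0.34 (adjusted p = 1.00). Markers of endothelium (164.5 to 186.6 in old against 203.5 to 208.8 in young isochronic mice) and of fibroblasts (363.1 to 373.1 against 397.7 to 462) stood apart in the same direction, all above 0, and their part was not tested. The beta and gamma row, tested as its own feature, overlapped between the isochronic groups (-0.11). In that row every young heterochronic library (24.9 to 34.2) was below every young isochronic one (37.6 to 51.99). The difference was -0.59 (SE 0.171, unadjusted p = 0.00185, adjusted p = 0.564, limma), not called. Ccl22 was at 0 in all 5 old parabionts and held 0, 2.35 and 3.30 in young isochronic and 0, 1.01 and 0 in young heterochronic mice, at most 4 reads each. Cxcl9, Cxcl10 and Ccl17 overlapped between the isochronic groups and rested on at most 12 reads per library. Old heterochronic mice stood above young heterochronic mice without overlap for Cxcl10 (0.92, SE 0.694, adjusted p = 0.744). They stood above old isochronic mice for Ccl17 (0.61, SE 0.718, adjusted p = 0.854), on 3 reads in all in each group.

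**Figure D4:**
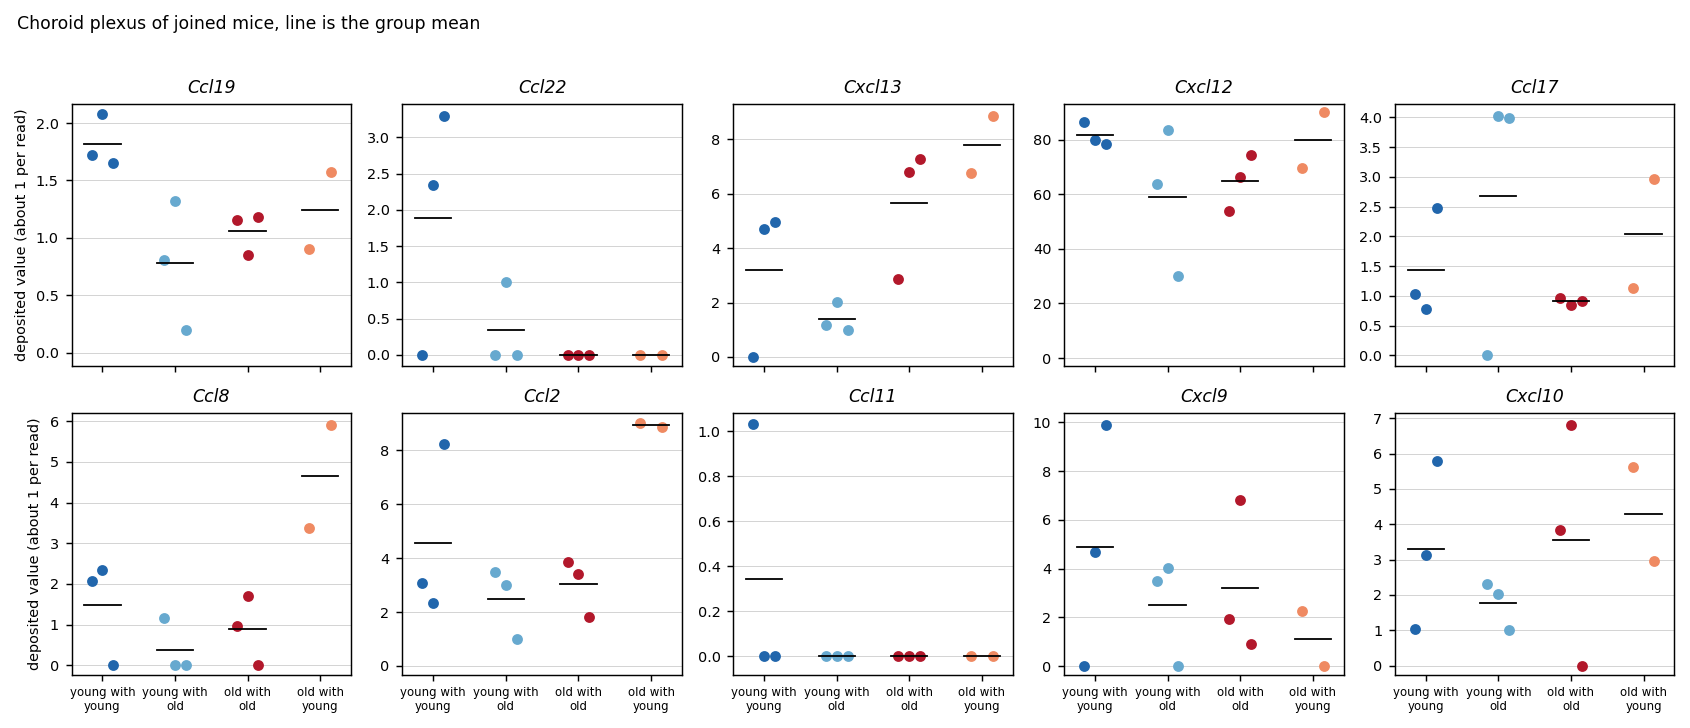
Deposited value of each chemokine in choroid plexus of every joined mouse, where 1 read is worth 0.783 to 1.48, in 4 groups (the mouse first, its partner second), with a line at the group mean. Ccl2 in the 2 old mice with a young partner lies at 8.87 and 9.00, and most other members lie between 0 and 10.

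Other genes of the pathway came from 3 lists. Of all 16854 genes tested, 3462 were called higher and 5315 lower in lymph nodes. The counts were 2909 and 5314 in bone marrow and 4541 and 5680 in choroid plexus. Receptors and other chemokines called lower in bone marrow were close to the share of all genes called lower there (31.5%). Of 16 chemokine receptors and scavengers, 12 were called higher and 1 lower in lymph nodes, led by Cxcr5, the CXCL13 receptor (2.24, adjusted p = 3.76e-12), Ccr7, the CCL19 receptor (4.07, adjusted p = 9.45e-12), and Ccr8, the CCL8 receptor (1.77, adjusted p = 1.93e-08). In choroid plexus 13 of the 16 were called lower and 2 higher, with Dpp4, a protease that trims chemokines, at -2.87 and Cxcr4, the CXCL12 receptor, at -3.84, while Ackr4, which scavenges CCL19, was higher by 3.05 (adjusted p = 1.83e-10). In bone marrow 4 were called higher and 5 lower, with Ccr1 (3.79), Ccr2 (3.63) and Ccr3 (2.09) leading. Of 22 other chemokines tested, 9 were called higher and 7 lower in lymph nodes, including Ccl21a (adjusted p = 3.76e-12), Ccl5 (3.60) and Xcl1 (1.86). In bone marrow 5 of them were higher and 7 lower, including Ppbp, a platelet chemokine (6.36). In choroid plexus 2 were higher and 12 lower, including Ccl6 (-4.66) and Ccl21a (-4.03). Of 12 inducers tested, 9 were higher and 1 lower in lymph nodes, with Lta, a cytokine that organises lymphoid tissue (3.18), and Nfkb2 (1.49), and 9 were lower and 1 higher in choroid plexus, with Nfkb2 at -3.34 and Irf1 at -2.22. In bone marrow 4 inducers were higher and 2 lower, with the cytokines Il1b (3.21), Tnf (1.44) and Il4 (0.76) among the higher ones. With age, 1 gene of the 3 lists was called in 1 tissue, Ccl5 in bone marrow (1.40, SE 0.240, adjusted p = 0.0467), where 0.0529% of all genes were called.

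Over the 63 tissue libraries, Pearson's r of log2 values with each member was highest for these genes, as a description with no test, since libraries of 1 organ share their cell mix. Ccl19 was closest to Cd209b (0.94), a lectin of marginal zone macrophages, and Cr2 (0.93), the B cell and follicular dendritic cell receptor of complement. Cxcl13 was closest to Ccl19 (0.89) and Marco (0.87), and Ccl22 to Gm10591 (0.94) and Ccl21b (0.94). Cxcl12 was closest to Dnase1l3 (0.89) and Timd4 (0.86), which macrophages express. Cxcl9 was closest to Aif1 (0.87) and H2-T22 (0.87), and Cxcl10 to Calhm6 (0.79). Ccl11 was closest to the fat cell genes Plin1 (0.85) and Aoc3 (0.81), and Ccl8 to Cd300ld4 (0.81) and Cd300ld3 (0.81). Ccl2 was closest to Ccl7 (0.67) and Cxcl9 (0.62), and Ccl17 to Eya2 (0.68) and Gnb4 (0.67). Without young mouse 2 these values ran from 0.61 to 0.94 over 52 libraries.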

How the data were processed

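RNA from 74 libraries was analysed, 63 of tissues and 11 of parabionts, of 75 samples in the labels. Bone marrow of young mouse 1 was not analysed here, and 1 column that matched no listed sample was not used here. The submitters' processing notes name TopHat and the mm9 build, while versions, counting and scaling were not stated in the sources used here. The deposited values are a signal, judged from the values to be reads per RefSeq transcript (partly fractional) divided by 1 factor per library. From 78.2% to 86.8% of values above 0 were whole multiples of the value worth 1 read, within 0.001 of a step, so no count model was used. The highest-mean row of each gene was tested with limma 3.58.1 in R 4.3.3, with its trend and robust options, after adding the median value worth 1 read (the pseudocount) and taking log2, and p-values were adjusted over all tested genes by Benjamini-Hochberg. Changes on this scale understate those of low genes. Contrasts between tissues had the mouse as a fixed term. The code was tested on simulated data. Alternatives were other pseudocounts, filters and scalings, voom weights, a replicate block and leaving out each library, and testing each row as its own feature was added after seeing the data. Genes named from the 3 pathway lists are those called, at most 3 per list and comparison by adjusted p, and 1 that met this rule is not reported here. Members and lists were chosen with earlier results of these data known.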

Additional observations from a re-analysis of the deposited data

Results flagged for a closer look

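Every aged library was above every young one in 1 tissue and below in another for 4 pairs of a member and 2 tissues. For Cxcl9 the aged minus young difference in inguinal lymph nodes was exceeded by that in cervical lymph nodes by 2.38 on the log2 scale, by that in liver by 2.61 and by that in mesenteric lymph nodes by 3.85. For Cxcl10 the difference in cervical lymph nodes exceeded that in thymus by 2.00. The differences between these pairs of tissues were not tested singly. Separation of so few libraries is a description, and its share over all genes is not given here. Over all tissues together, the age effect of Cxcl9 was not called as different between tissues (adjusted p = 0.457, limma).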

How the results depend on the processing

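Differences of members with an unadjusted p under 0.05, and some others, 60 in all, were followed through every alternative. Of their values, 913 kept direction and side of the threshold, 24 lost and 17 gained the call, and 2 reversed. These were Cxcl12 in inguinal lymph nodes without aged replicate 1 (-0.17) and without aged replicate 2 (-0.31), against 0.85 without aged replicate 3. The other sign changes given above, such as that of Ccl22 in inguinal lymph nodes, lie outside these 60. Over all 65 age differences tested, leaving out 1 library turned the sign of 24, in 41 of 364 values, 12 of them without young mouse 2 and 7 without aged mouse 3, and the largest of the 24 was 1.54 in size with all libraries. The number of members called in thymus (1) was 0 with the smaller pseudocount, with no filter, without trend and robust options and with all tissue libraries in one fit, and leaving out 1 library gave 0 to 1. In spleen it was 1 without trend and robust options, and 0 to 1 leaving out 1 library (1 without young replicate 2). In inguinal lymph nodes leaving out 1 library gave 0 to 2. With the replicate number as a block, 2 members were called in thymus, Cxcl13 and Ccl22 (adjusted p = 0.0312, limma), beside 1.76% of all genes against 1.09% without it. Same-numbered young and aged mice did not deviate together in most tissues (correlations of -0.20 to 0.18 over 11 tissues, with every pair over 0.1 in 0 of the 8 tissues with 3 pairs). In cervical lymph nodes the 2 pairs stood at 0.134 and 0.115. So few pairs cannot decide whether same-numbered mice were handled together, and the reported age fits did not use the numbers as pairs.

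The number of all genes called moved more than that of members: over the alternatives it ran from 0 to 268 in thymus (130 as reported), 7 to 55 in choroid plexus (32), 8 to 63 in spleen (18), 0 to 44 in colon (15), 0 to 233 in bone marrow (6), 0 to 40 in cervical (4), 0 to 26 in mesenteric (4) and 0 to 30 in inguinal lymph nodes (0), 0 to 221 in liver (2), 0 to 41 in lung (1), 0 to 24 in hippocampus (0), and 10 to 597 for an age effect differing between tissues (25). In parabionts it ran from 1 to 44 between isochronic groups (25), 1 to 63 between heterochronic groups (19), 0 to 74 for old (0) and 0 to 6 for young mice (0) by partner, and 0 to 10 for the effect of the partner in old minus that in young (0). The cause was not tested. Other scalings moved the median of all genes with age by 0.19 in cervical lymph nodes, 0.16 in liver and 0.15 in hippocampus. Members at a few reads per library, 45 of 110 pairs with a tissue, could not be judged at this depth.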
